A study of Mus musculus with 6 samples.

Results

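Platelet-derived growth factors (PDGFs) and their receptors were examined in brain mural cells and brain microvessels. Genes whose symbol in the NCBIM37 annotation is that of a PDGF ligand or receptor were taken, which gave 7 of the 33460 genes listed: the ligands *Pdgfa*, *Pdgfb*, *Pdgfc* and *Pdgfd*, the receptors *Pdgfra* and *Pdgfrb*, and the receptor-like gene *Pdgfrl*. No other listed symbol begins with Pdgf. RNA-seq was available for 3 libraries of mural cells sorted by FACS for both reporters and for 3 libraries of microvascular fragments. Both groups came from the brains of the same 3 mice at postnatal day 6, with part of each brain dissociated for sorting and the remainder used for fragments. Every mouse carried both transgenes, *Pdgfrb-eGFP* (line Tg(Pdgfrb-eGFP)JN169Gsat/Mmucd), which places eGFP under the *Pdgfrb* promoter, and *NG2-DsRed*, which places DsRed under the promoter of *NG2* (*Cspg4*). No treatment or mutant group was included. The fragments were captured on beads with an anti-CD31 antibody after collagenase digestion, and they hold endothelial cells (EC) together with mural cells. They are therefore a mixed comparator and not a purified EC population. Because *Pdgfrb* drives a reporter used in the gate, its difference between the groups follows from how the cells were chosen and serves as a check of the labels.

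PDGFs are secreted dimers that bind 2 receptor tyrosine kinases, PDGFRα and PDGFRβ, and ligand binding pairs the receptors and starts phosphorylation of their tails. In developing brain vessels, PDGF-B made by EC is retained near the cell surface and recruits PDGFRβ-positive pericytes along the sprout. PDGF-A acts through PDGFRα, which in the brain is best known from oligodendrocyte progenitors and from fibroblasts around larger vessels. PDGF-C and PDGF-D are secreted in a latent form and need proteolytic removal of an N-terminal domain before they can bind.

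In the sorted mural cells the receptors were higher than in the fragments, while the ligands went in different directions. *Pdgfrb* was 9.81-fold, *Pdgfrl* 4.67-fold and *Pdgfra* 1.59-fold higher, each as a ratio of mean FPKM over 3 libraries per group. Of the ligands, *Pdgfa* was 2.44-fold higher and *Pdgfd* fell to 50.6% of its level in the fragments, whereas *Pdgfb* and *Pdgfc* did not pass the test. All 7 genes passed a filter (FPKM of 1 or more in 3 or more libraries) and were tested with limma on log2(FPKM + 1), with Benjamini-Hochberg adjustment over 14801 genes. At an adjusted p under 0.05, 4 members were higher, where 9.34% of all tested genes were, and 1 was lower, where 13.0% of all tested genes were. With a ratio above 2 required as well, 3 members were higher against 6.43% of all genes, and 0 members were more than 2-fold lower against 10.1%. The library values of the 2 groups did not overlap for 5 members, as for 40.9% of all tested genes, with 4 members above the fragments (16.5% of all genes) and 1 below (24.5%). Each of these counts of higher members includes *Pdgfrb*, whose rise follows from how the cells were chosen. With any 1 library left out, 3 members were higher, since *Pdgfra* lost its call, and 0 were lower except without mural cell replicate 1, when 1 was. The genes lower among all tested fell from 1927 to 741, 804 and 719 without fragment replicate 1, 2 or 3, and the genes higher from 1383 to 884, 883 and 842. In such bulk libraries, fewer cells of a type and less RNA per cell cannot be told apart.

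**Figure D1:**
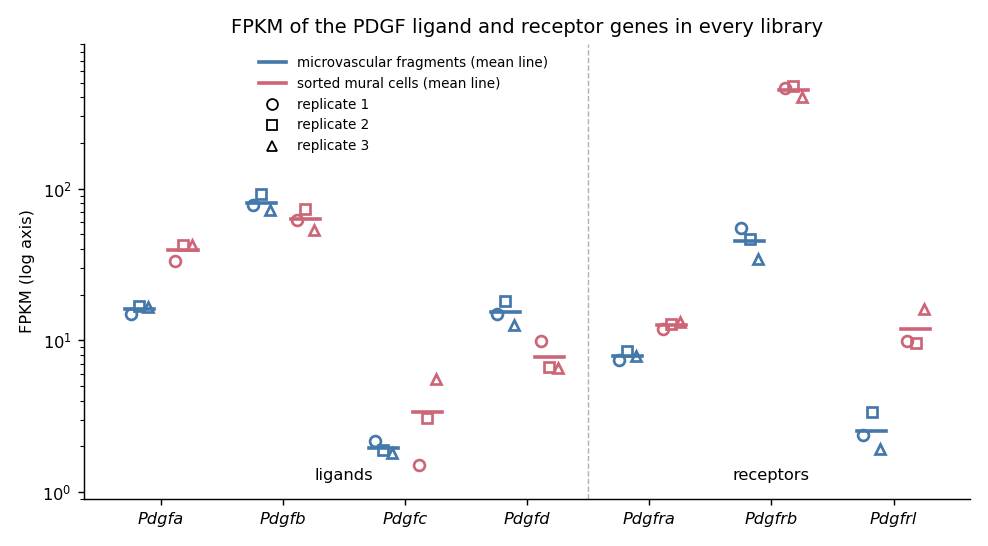
FPKM (log axis) of the 4 ligand genes and 3 receptor genes in each library, with circles, squares and triangles for replicates 1, 2 and 3, blue for microvascular fragments, red for sorted mural cells and a line at each group mean. The mural cell libraries lie above the fragments for *Pdgfa* and the 3 receptor genes, below them for *Pdgfd*, and overlap them for *Pdgfb* and *Pdgfc*.

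The depth behind these values was lower in the sorted cells. The FPKM that a single fragment adds was read from the steps between low values of single-transcript genes (97.9 to 98.9% of values were whole steps within a tolerance of 0.05), which gave approximately 5.41 to 5.94 M fragments on protein-coding genes per microvascular library. The mural cell libraries held 2.36, 1.03 and 1.05 M. The labels were checked with 13 mural cell markers, genes that the study itself treats as markers for the most part. All 13 were higher in the sorted cells, with a median ratio of 9.12 (range 6.47 to 12.5) against 0.943 for all tested genes. The list holds *Cspg4*, whose promoter drives a reporter of the gate, and was chosen with earlier results of these data known. Its rise therefore serves only as a check of the labels. Sorted libraries still held EC transcripts. The 12 EC markers had a median of 63.7% of their fragment level (range 35.3 to 129%), with 7 lower and 0 higher. The 8 microglia markers were all lower, at a median of 8.94%. The p-values rest on the spread between the 3 libraries of each group. That spread holds differences between mice and preparations and, for genes read at few fragments, the noise of low counts. The same mice gave both groups, and the main fit did not pair them.

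*Pdgfrb* (ENSMUSG00000024620, chromosome 18, 61204804 to 61244715, plus strand) encodes PDGFRβ, the receptor that pericytes need to be recruited to vessels. Its FPKM was 54.8, 46.8 and 34.6 in the fragments 1, 2 and 3 and 461, 474 and 401 in the mural cell libraries. Every mural cell library thus stood far above every fragment library. Mean levels were 45.4 ± 10.2 and 445 ± 39.0 (SD, n = 3 libraries each), and the difference on the log2(FPKM + 1) scale was 3.29 (standard error 0.18, 95% interval 2.87 to 3.70, adjusted p = 8.5e-05). The gene went from the 85.7th to the 99.6th percentile of all tested genes by mean FPKM. Its ratio lay within the range of the 13 mural cell markers, among which *Cspg4*, the source of the other reporter, was lowest at 6.47. Approximately 1642 to 4260 fragments of *Pdgfrb* were read per mural cell library, so depth was not limiting for this gene.

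*Pdgfra* (ENSMUSG00000029231, chromosome 5, 75548316 to 75594229, plus strand) encodes PDGFRα. It was measured at 7.39, 8.49 and 7.92 FPKM in the fragments and at 11.9, 12.9 and 13.2 FPKM in the sorted cells. The groups did not overlap and the spread within each was small (7.93 ± 0.554 against 12.6 ± 0.695, SD, n = 3). The difference was 0.61 on the log2 scale (standard error 0.18, 95% interval 0.19 to 1.03, adjusted p = 0.0481), close to the threshold, and with any 1 of the 6 libraries left out the adjusted p was between 0.0602 and 0.176. The direction was the same in all of these fits, with differences of 0.57 to 0.66. With the replicate number as a block, should it mark the mouse, the adjusted p was 0.104.

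Markers of 2 other *Pdgfra*-expressing cell types moved differently beside it. Of 8 oligodendrocyte progenitor markers, 7 were matched by symbol (*Lhfpl3* was not) and 6 were tested, with 0 higher and 0 lower and a median ratio of 1.16. *Olig1*, a transcription factor of this lineage, was at 7.77, 9.10 and 7.74 FPKM in the fragments and 10.3, 6.13 and 15.5 FPKM in the sorted cells, so that the groups overlapped. The summed level of the list ranged from 19.5 to 27.2 FPKM in the fragments and from 18.2 to 43.5 FPKM in the sorted cells. *Neu4* was listed at 0 in 1 fragment library and in 1 sorted library, and no marker found was at 0 throughout a group. Fibroblast markers were higher. Of the 7 tested of 8, 5 rose and 0 fell, with a median ratio of 7.33 and a summed level of 82.7 to 89.6 FPKM in the fragments against 511 to 692 FPKM in the sorted cells.

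The members of that list that rose were the collagen genes *Col1a1*, *Col1a2* and *Col3a1*, of which the latter pair stands in the study's own mural cell catalogue, and the small proteoglycan genes *Dcn* and *Lum*. *Dcn* was at 2.98, 4.12 and 4.88 FPKM in the fragments and 29.0, 20.1 and 38.7 FPKM in the sorted cells (adjusted p = 8.9e-04). *Slc6a13* and *Lama1* did not pass, and *Dpt* was listed at 0 in the fragments and in 2 sorted libraries. The part of fibroblasts in the levels of *Pdgfra*, *Pdgfrb* and *Pdgfrl* was not tested.

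*Pdgfrl* (ENSMUSG00000031595, chromosome 8, 42011566 to 42076139, plus strand) encodes a protein related to the extracellular part of the receptors that lacks a kinase domain. It was low in the fragments, at 2.37, 3.35 and 1.91 FPKM, and reached 9.94, 9.66 and 16.0 FPKM in the sorted cells. All 3 sorted libraries were above the fragments, with the highest value in replicate 3. The means were 2.54 ± 0.733 and 11.9 ± 3.59 (SD, n = 3), with a difference of 1.85 on the log2 scale (standard error 0.29, 95% interval 1.16 to 2.53, adjusted p = 0.00417). These values rest on few fragments, approximately 17 to 26 per fragment library and 13 to 33 per mural cell library. Without mural cell replicate 3 the ratio was 3.85 and the adjusted p was 0.00955.

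Among the ligands, *Pdgfb* (ENSMUSG00000000489, chromosome 15, 79826330 to 79845238, minus strand), which encodes the B chain that binds both receptors, was the most abundant in both groups. Its FPKM was 78.4, 91.7 and 72.3 in the fragments and 61.8, 73.1 and 53.7 in the sorted cells. Mural cell replicate 2 exceeded fragment replicate 3, so the groups overlapped. The means were 80.8 ± 9.91 and 62.9 ± 9.77 (SD, n = 3), and the difference of -0.36 on the log2 scale (standard error 0.15) did not pass the test (adjusted p = 0.143). Its 95% interval, as a fold, ran from 0.607 to 1.00, which reaches from a marked fall to no change. The sorted cells thus retained *Pdgfb* at 77.9% of the fragment level.

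EC markers were set beside *Pdgfb*, since EC are its known source in the vessel wall. Of the 12 markers, 5 retained more of their fragment level than *Pdgfb* did and 7 retained less. *Pecam1*, which encodes CD31, was at 378, 371 and 365 FPKM in the fragments and 272, 221 and 208 FPKM in the sorted cells, or 62.9% (adjusted p = 0.00957). Within a library, *Pdgfb* amounted to 20.7, 24.7 and 19.8% of *Pecam1* in the fragments and to 22.7, 33.2 and 25.8% in the sorted cells, and these shares overlapped. The summed EC markers ranged from 1815 to 2132 FPKM in the fragments and from 1332 to 1799 FPKM in the sorted cells, with none at 0 in any library. Of 8 markers of tip and arterial EC, the cells in which *Pdgfb* is known to be high, 7 were tested, with 2 higher, 2 lower and a median ratio of 0.879, and *Kcne3* was listed at 0 in the sorted cells. Of 5 platelet markers, another known source of PDGF, 1 was higher and 2 were lower, with a median ratio of 0.381 and sums of 46.5 to 58.4 FPKM in the fragments against 13.9 to 22.2 FPKM in the sorted cells. The fall of this sum rests mainly on *Pf4*, its largest part in each fragment library. *Pf4* was at 22.8, 45.8 and 42.0 FPKM in the fragments and 4.44, 0 and 3.3 FPKM in the sorted cells. *Gp1bb* went the other way (3.88-fold), so the sum does not speak for the list as a whole. *Ppbp*, *Pf4* and *Gp9* were each at 0 in at least 1 sorted library. The part of EC or platelet RNA in the *Pdgfb* level of the sorted libraries was not tested.

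*Pdgfa* (ENSMUSG00000025856, chromosome 5, 139451968 to 139473324, minus strand) encodes the A chain, the ligand of PDGFRα. It was at 14.9, 17.0 and 16.6 FPKM in the fragments and at 33.2, 42.4 and 42.6 FPKM in the sorted cells. Each sorted library was about 2-fold or more above the fragment mean, and the groups did not overlap. The means were 16.2 ± 1.10 and 39.4 ± 5.38 (SD, n = 3), with a difference of 1.23 on the log2 scale (standard error 0.15, 95% interval 0.87 to 1.59, adjusted p = 0.00152). *Pdgfa* shares 813 of the 5521 exon bases of the antisense gene *6330403L08Rik*, which was at 3.56 to 4.08 FPKM in the fragments and 6.88 to 13.4 FPKM in the sorted cells. The library kit keeps strand, but whether strand was used in counting is not given in the sources used here, and reads over the shared bases may then be split between the genes.

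*Pdgfd* (ENSMUSG00000032006, chromosome 9, 6168612 to 6378843, plus strand) encodes the D chain, a ligand of PDGFRβ. It was measured at 14.9, 18.2 and 12.7 FPKM in the fragments and at 9.93, 6.70 and 6.56 FPKM in the sorted cells, so all sorted libraries were below all fragment libraries. The means were 15.3 ± 2.77 and 7.73 ± 1.90 (SD, n = 3), with a difference of -0.91 on the log2 scale (standard error 0.24, 95% interval -1.46 to -0.35, adjusted p = 0.0313). The call depended on single libraries. With mural cell replicate 1 left out it remained (adjusted p = 0.0195, ratio 0.434), and with any other library left out the adjusted p was 0.063 to 0.132. With the replicate number as a block the adjusted p was 0.0538. *Pdgfd* was read at approximately 14 to 50 fragments per mural cell library.

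*Pdgfc* (ENSMUSG00000028019, chromosome 3, 80840338 to 81017962, plus strand) encodes the C chain, a ligand of PDGFRα, and was the lowest member in both groups. It was at 2.17, 1.89 and 1.81 FPKM in the fragments and 1.51, 3.08 and 5.55 FPKM in the sorted cells. The sorted libraries spread around the fragments, with the highest value in replicate 3. The means were 1.96 ± 0.192 and 3.38 ± 2.04 (SD, n = 3), and the difference of 0.46 on the log2 scale (standard error 0.38, 95% interval -0.44 to 1.36) did not pass the test (adjusted p = 0.445). Approximately 8 to 14 fragments of *Pdgfc* were read per mural cell library, and 147 of the 447 exon bases of the opposite-strand transcript *Gm16000* overlap it. *Gm16000* was at 0.858, 0.932 and 0 FPKM in the fragments and at 0, 0 and 5.14 FPKM in the sorted cells. Whether its reads entered the *Pdgfc* level of replicate 3 was not tested.

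Mural cell replicate 3 stood apart in astrocyte markers beside these values. The summed level of the 6 astrocyte markers was 231, 182 and 678 FPKM in the sorted libraries and 268 to 378 FPKM in the fragments, with 0 of 6 markers passing the test, a median ratio of 1.26 and none at 0. Without that library the *Pdgfc* ratio was 1.17. The summed oligodendrocyte progenitor markers were also highest in replicate 3, at 25.6, 18.2 and 43.5 FPKM in the sorted libraries, although *Sox10* was lowest there (3.13, 2.87 and 1.09 FPKM). Of 8 neuron markers, 7 were tested, 0 passed and the median ratio was 0.602, with sums of 28.8 to 40.5 FPKM in the fragments and 18.1 to 29.3 FPKM in the sorted cells, where *Rbfox3*, *Gad1* and *Nefl* were each at 0 in 1 library. The part of astrocyte or oligodendrocyte progenitor RNA in the *Pdgfc* and *Pdgfrl* levels of replicate 3 was not tested.

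**Figure D2:**
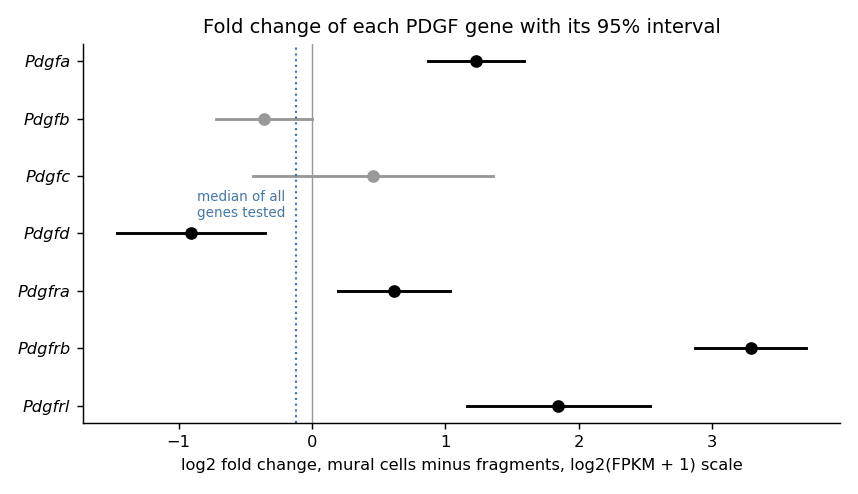
Log2 fold change of each PDGF gene (mural cells minus fragments, log2(FPKM + 1) scale) with its 95% interval, in black where the adjusted p was under 0.05 and in grey otherwise, and a dotted line at the median of all tested genes, -0.12. *Pdgfrb* (3.29), *Pdgfrl* (1.85), *Pdgfa* (1.23) and *Pdgfra* (0.61) lie above 0, *Pdgfd* (-0.91) lies below it, and the interval of *Pdgfc* spans 0 while that of *Pdgfb* ends at it.

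The promoters of the ligands that were called in opposite directions are shown to set their sequences side by side. RefSeq starts of 4 members were used (*Pdgfa*, *Pdgfc*, *Pdgfd* and *Pdgfra*), and the 250 bases before the start were read from the RefSeq table of build GRCm38.p6, which differs from the build of the expression values. Capitals mark a GC box (GGGCGG on either strand, a motif bound by Sp1 family factors) in *Pdgfa* and a TATAAA motif in *Pdgfd*.
*Pdgfa* promoter, chr5:138994945-138995194, minus strand: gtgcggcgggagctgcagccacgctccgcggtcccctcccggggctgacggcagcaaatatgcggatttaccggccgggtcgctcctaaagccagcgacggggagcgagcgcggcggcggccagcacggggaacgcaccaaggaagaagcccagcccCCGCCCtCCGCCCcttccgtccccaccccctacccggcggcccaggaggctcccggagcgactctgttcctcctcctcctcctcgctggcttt
*Pdgfd* promoter, chr9:6168236-6168485, plus strand: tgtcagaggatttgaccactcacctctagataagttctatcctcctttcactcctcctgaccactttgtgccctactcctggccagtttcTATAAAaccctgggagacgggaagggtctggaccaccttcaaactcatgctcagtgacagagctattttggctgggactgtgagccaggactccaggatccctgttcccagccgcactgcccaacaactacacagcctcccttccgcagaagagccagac
The *Pdgfa* window holds 2 GC boxes in a stretch of 72.4% G and C, with no TATAAA. The *Pdgfd* window holds 1 TATAAA and no GC box, at 53.6% G and C. A second *Pdgfa* start had 1 GC box and 66.4% G and C. Across 32851 mouse promoter windows of this length, 32.7% held a GC box, 12.4% held TATAAA on either strand and the median G and C content was 52.4%. *Pdgfc* and *Pdgfra* held neither motif, and a CArG box, the serum response factor motif of smooth muscle genes (1.47% of windows), was found in *Pdgfc*. These matches describe letters in the windows and are not measured binding.

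Summed over the 4 genes, ligand transcripts differed little between the groups. The sums were 110, 129 and 103 FPKM in the fragments and 106, 125 and 108 FPKM in the sorted cells, a ratio of means of 0.993. The makeup of the sum differed. *Pdgfb* was 71.0, 71.2 and 69.9% of ligand FPKM in the fragments and 58.1, 58.4 and 49.5% in the sorted cells, while *Pdgfa* was 13.5, 13.2 and 16.1% and 31.2, 33.8 and 39.3%. *Pdgfb* thus exceeded *Pdgfa* by 4.34 to 5.40-fold in the fragments and by 1.26 to 1.86-fold in the sorted cells. Sorted libraries kept EC markers at a median of 63.7% of their fragment level, and the part of EC RNA in these ligand shares was not tested.

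The summed receptors *Pdgfra* and *Pdgfrb* were 62.2, 55.3 and 42.5 FPKM in the fragments and 473, 487 and 414 FPKM in the sorted cells, 8.58-fold higher in the means (53.3 ± 9.99 and 458 ± 38.6, SD, n = 3). *Pdgfrb* made up 81.4 to 88.1% of receptor FPKM in the fragments and 96.8 to 97.5% in the sorted cells, so that the 2 receptors differed 4.37 to 7.42-fold and 30.4 to 38.9-fold. Receptor FPKM per ligand FPKM was 0.564, 0.430 and 0.411 in the fragments and 4.44, 3.88 and 3.82 in the sorted cells. Ligand transcripts outweighed receptor transcripts in each fragment library and the reverse held in each sorted library. Since *Pdgfrb* drives a reporter used in the gate, its share of this reversal follows from how the cells were chosen. *Pdgfra* alone stayed below *Pdgfa* in every library, at 0.476 to 0.501 of it in the fragments and 0.304 to 0.357 in the sorted cells. These sums are given as descriptions, with no test.

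**Figure D3:**
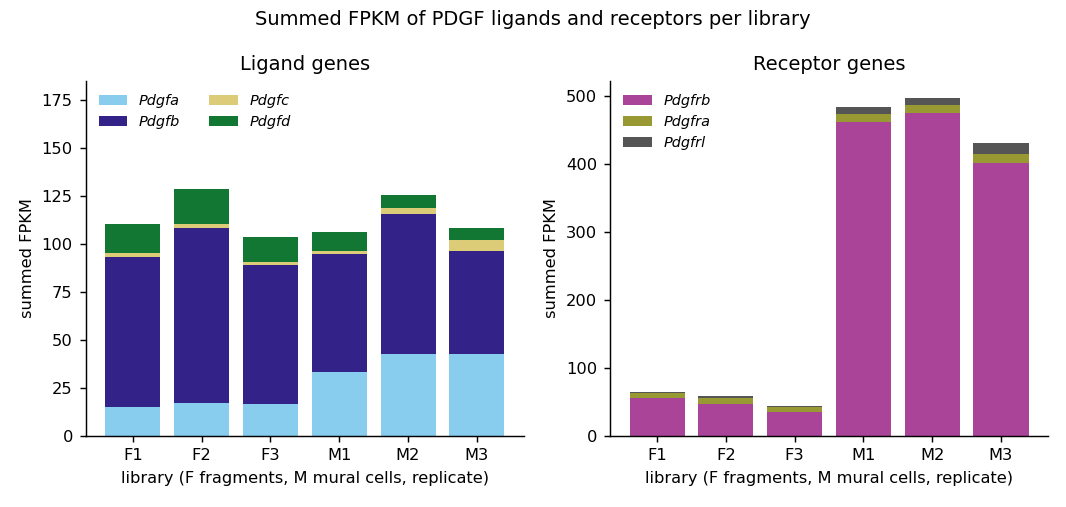
Summed FPKM of the ligand genes (left) and receptor genes (right) in each library, F for microvascular fragments and M for sorted mural cells with the replicate number, stacked by gene. Ligand sums lie between 103 and 129 FPKM in all libraries, whereas receptor sums, here with *Pdgfrl* included, reach 44.4 to 64.6 FPKM in fragments and 430 to 496 FPKM in mural cells.

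Ordered by FPKM, a value per length of transcript, the levels in the sorted cells ran *Pdgfrb*, *Pdgfb*, *Pdgfa*, *Pdgfra*, *Pdgfrl*, *Pdgfd* and *Pdgfc*. *Pdgfrb* was 7.08-fold above *Pdgfb*, and *Pdgfa* was 3.12-fold above *Pdgfra*. These are levels of libraries that still held EC transcripts, and the part of EC RNA in *Pdgfb* and *Pdgfd* was not tested. The ranges over the sorted libraries overlapped between *Pdgfra* and *Pdgfrl* and between *Pdgfrl* and *Pdgfd*, and the order of these neighbours was not tested. Library by library, *Pdgfrl* was at 9.94, 9.66 and 16.0 FPKM, *Pdgfd* below it each time at 9.93, 6.70 and 6.56 FPKM. *Pdgfra* was above *Pdgfrl* in replicates 1 and 2 and below it in replicate 3. In the fragments the order was *Pdgfb*, *Pdgfrb*, *Pdgfa*, *Pdgfd*, *Pdgfra*, *Pdgfrl* and *Pdgfc*, with overlap between *Pdgfa* and *Pdgfd* and between *Pdgfrl* and *Pdgfc*. *Pdgfb* was 1.78-fold above *Pdgfrb* there.

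The 3 tested genes with the most similar profile were found for each member as the smallest root mean square difference of centred log2(FPKM + 1) over the 6 libraries. For *Pdgfrb* these were *S1pr3* (0.072), a sphingosine-1-phosphate receptor gene, *Cd248* (0.076), which encodes the pericyte and fibroblast surface protein endosialin, and *E130203B14Rik* (0.091), with ratios of 9.47, 9.52 and 9.80. *Pdgfd* lay closest to *Prrg1* (0.079), *Tek* (0.093), the EC angiopoietin receptor gene, and *Abcc4* (0.096). *Pdgfa* lay closest to *Rgs7bp* (0.035), *Thsd4* (0.066) and *Nrxn2* (0.069), and *Pdgfra* to *Nynrin* (0.048), *Daam1* (0.052) and *Gm12807* (0.053). *Pdgfb* was nearest to *Olfr613*, *Mll5* and *Pcyt1a* (0.034 to 0.049), *Pdgfc* to *Chrdl1*, *Vps37d* and *Rasgrp1* (0.088 to 0.105), and *Pdgfrl* to *Hs6st2*, *Fam73b* and *Cpt1c* (0.151 to 0.182). A like profile on this scale did not always come with a like ratio of mean FPKM. *Thsd4* had a ratio of 3.47 and *Rgs7bp* of 2.62, beside 2.44 for *Pdgfa*. *Fam73b* had 3.05 and *Hs6st2* 4.52, beside 4.67 for *Pdgfrl*. Libraries are shared by all points, and a like profile over 6 libraries is a description.

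Genes that act on the ligands outside the cell were measured next. Of 12 genes for ligand processing, retention and co-receptors, 2 were higher, 3 were lower and 7 did not pass, with a median ratio of 0.906 against 0.943 for all genes. *Plat*, which encodes tissue plasminogen activator, a protease that activates PDGF-C, was at 75.8, 60.7 and 54.1 FPKM in the fragments and 179, 173 and 130 FPKM in the sorted cells, 2.53-fold higher (adjusted p = 0.00201). *Plau*, which encodes urokinase, an activator of PDGF-D, was at 32.5, 19.0 and 29.7 FPKM and at 12.1, 14.4 and 15.4 FPKM, or 51.7% (adjusted p = 0.0317). The library values of these proteases thus did not overlap between the groups, as for 40.9% of all tested genes. *Sparc*, whose matrix protein binds PDGF, was 1.40-fold higher (adjusted p = 0.0291). *Hs6st1*, which encodes a heparan sulfate 6-O-sulfotransferase, was at 49.6% (adjusted p = 0.0174) and the co-receptor gene *Nrp2* at 58.7% (adjusted p = 0.00318). *Furin*, whose protease cleaves the A and B proproteins, was at 54.2, 54.0 and 51.0 FPKM and at 55.0, 46.1 and 61.2 FPKM (adjusted p = 0.941). *Furin* was chosen for mention after its values were seen.

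Of 22 genes for signalling close to the receptors, 7 were higher, 1 was lower and 14 did not pass, with a median ratio of 1.15. The adaptor gene *Nck2*, whose protein docks on phosphorylated PDGFRβ, was at 26.0, 18.5 and 17.2 FPKM in the fragments and 79.9, 80.1 and 83.6 FPKM in the sorted cells, 3.95-fold higher (adjusted p = 3.3e-04). *Slc9a3r1*, the gene of a PDZ scaffold that binds the receptor tail, was 2.73-fold higher (adjusted p = 0.00122) and the docking protein gene *Gab1* 1.92-fold (adjusted p = 0.00215). *Pik3cb*, a catalytic subunit gene of phosphoinositide 3-kinase, fell to 26.3% (adjusted p = 0.00442).

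Negative regulators of receptor signalling were split, with 4 of 14 higher, 4 lower and 6 not passing, and a median ratio of 1.03. *Spry4* and *Spry2*, feedback inhibitors of the Ras pathway, were 4.83-fold and 2.83-fold higher (adjusted p = 5.1e-04 and 0.00118). Tyrosine phosphatase genes were among those that fell, with *Ptprj* at 28.5% (adjusted p = 3.0e-04) and *Ptpn1* at 62.7% (adjusted p = 0.0429). *Socs3*, a feedback inhibitor of cytokine signalling, was at 62.7, 42.1 and 53.9 FPKM in the fragments and at 4.08, 5.14 and 4.32 FPKM in the sorted cells (8.53%, adjusted p = 1.0e-04). The 8 microglia markers were at a median of 8.94%. The part of microglia RNA in the fragment levels of *Socs3*, *Ptprj* and *Pik3cb* was not tested.

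**Figure D4:**
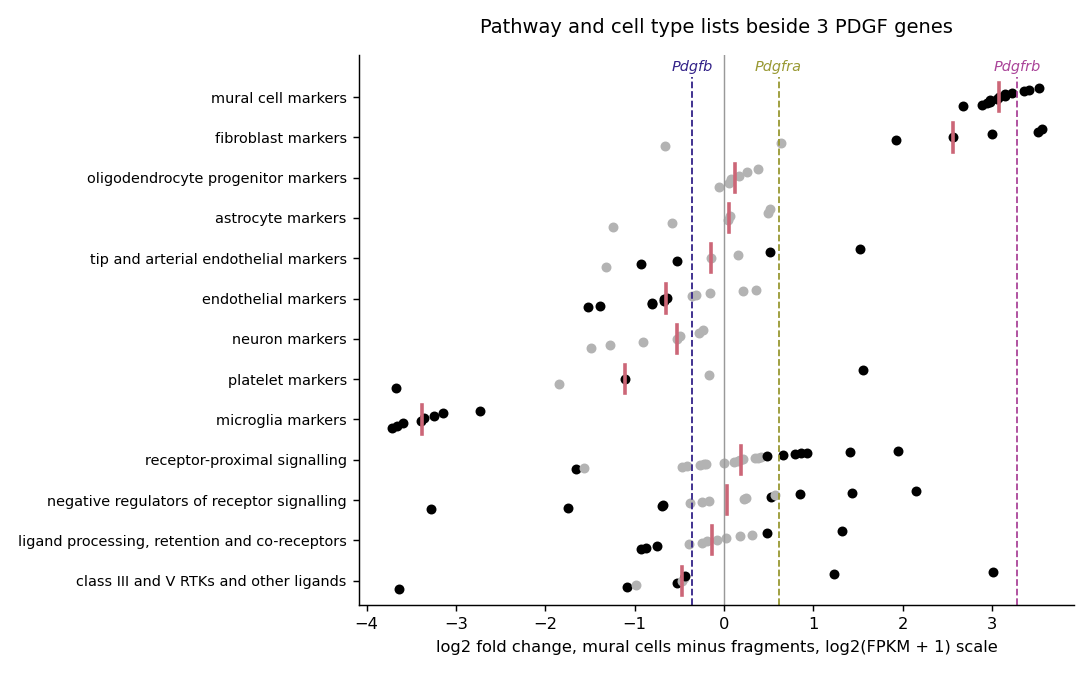
Log2 fold change (mural cells minus fragments, log2(FPKM + 1) scale) of each tested gene of 9 cell type lists and 4 pathway lists, black where the adjusted p was under 0.05 and grey otherwise, with a red bar at each list's median and dashed lines at *Pdgfb*, *Pdgfra* and *Pdgfrb*. The *Pdgfrb* line falls among the mural cell markers, while the *Pdgfb* line falls within the spread of the EC markers and the 8 microglia markers lie at the far left.

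The relatives of the PDGF receptors, the class III and V receptor tyrosine kinases, and their other ligands gave 2 higher and 4 lower of 9 tested of 10, with a median ratio of 0.718. *Kit*, the stem cell factor receptor gene, was at 32.4, 23.4 and 37.2 FPKM in the fragments and 59.7, 97.5 and 66.1 FPKM in the sorted cells, 2.40-fold higher (adjusted p = 0.00969). *Csf1r*, the receptor gene of microglia and macrophages, was at 860, 649 and 747 FPKM and at 89.9, 44.8 and 50.5 FPKM, or 8.21% (adjusted p = 1.7e-04). Its level fell as the 8 microglia markers did, whose sums were 992 to 1466 FPKM in the fragments and 119 to 140 FPKM in the sorted cells, with *Aif1* at 0 in 1 sorted library. The part of microglia RNA in it was not tested. Of its ligands, *Il34* was 9.78-fold higher (adjusted p = 5.2e-04) and *Csf1* fell to 45.9% (adjusted p = 0.00889). The VEGF receptor genes *Kdr* (73.8%, adjusted p = 0.0245) and *Flt4* (69.2%, adjusted p = 0.0483) were lower, whereas *Flt1* was at 71.8% and did not pass (adjusted p = 0.0774). *Flt3* was listed at 0 in the sorted cells, at under 0.3 FPKM in the fragments, and was not tested.

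Both PDGF receptor genes have relatives next to them on the chromosome. *Pdgfrb* ends 20.5 kb from *Csf1r* with 0 protein-coding genes between them, and the 2 neighbours had ratios of 9.81 and 0.0821. *Pdgfra* lies 377 kb from *Kit*, and *Kit* 276 kb from *Kdr*, again with 0 coding genes between. Along this cluster the ratios were 1.59, 2.40 and 0.738.

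*Pdgfb* and *Pdgfrb* are also genes of primary familial brain calcification, a disorder with calcium deposits around small brain vessels. Of 6 such genes, 2 were higher and 4 did not pass, with a median ratio of 1.42. *Slc20a2*, a phosphate importer gene, was at 12.1, 12.8 and 11.0 FPKM in the fragments and 25.3, 32.3 and 26.9 FPKM in the sorted cells, 2.36-fold higher (adjusted p = 0.0023). Besides it, *Pdgfrb* was the other gene that rose. The phosphate exporter gene *Xpr1* was at 77.9% (adjusted p = 0.105) and the junction protein gene *Jam2* at 80.4% (adjusted p = 0.187). *AI464131* (*Myorg*), the gene of a glycosidase known from astrocytes, was at 5.40, 4.23 and 3.25 FPKM in the fragments and at 3.40, 3.38 and 19.5 FPKM in the sorted cells (adjusted p = 0.611), with the high value in the replicate that also had the highest astrocyte markers. These 3 genes were chosen for mention after their values were seen.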

How the data were processed

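Members and gene lists were chosen with earlier results of these data known. The authors deposited an FPKM value per Ensembl gene and library. Per the methods, the indexed libraries of both groups were pooled for sequencing and shared a lane. Per the labels and methods, paired-end reads were aligned to NCBIM37 with TopHat2 2.0.4. Duplicates were removed with Picard 1.92 and FPKM was computed with Cufflinks 2.2.1. Of 33484 lines, 1 was kept for each of 9 repeated identifiers, which left 33460 genes, 33116 of them annotated in GENCODE M1. Since FPKM are not counts, log2(FPKM + 1) was fitted with limma 3.58.1 (R 4.3.3, intensity trend, Benjamini-Hochberg adjustment) over 14801 genes with FPKM of at least 1 in at least 3 libraries. Ratios are of mean FPKM. The pseudocount understates fold changes of low genes. Fragments per gene were estimated from the FPKM value of 1 fragment and the longest transcript, and are approximate. The low depth of the mural cell libraries limits the precision of low genes. Named genes are the members, up to 3 genes per direction of each pathway list by log2 fold change among those called, all class III and V receptors, *Pecam1*, *Olig1* and *Dcn*, and the 3 nearest profiles of each member, besides those the text marks as chosen later. A gene that this rule names is not reported here. Alternatives were a pseudocount of 0.1, no filter, median-ratio and quantile scaling, no trend, a replicate block and leaving out each library. Summaries used Python 3.11.15, pandas 2.3.3 and NumPy 2.4.6.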

Additional observations from a re-analysis of the deposited data

How the results depend on the processing

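*Pdgfa*, *Pdgfrb* and *Pdgfrl* stayed past the threshold and *Pdgfb* and *Pdgfc* stayed short of it under all 13 alternatives run, and no result reversed. *Pdgfra* lost its call without a filter on low values (0.61 on the log2 scale, adjusted p = 0.0542) and *Pdgfra* and *Pdgfd* lost theirs with the replicate number as a block (0.61, adjusted p = 0.104, and -0.91, adjusted p = 0.0538), which left 0 members lower. The labels do not say that a number marks a mouse. Deviations of same-numbered samples correlated at 0.082, 0.020 and 0.045, none over 0.1, although each sample correlated best with its own number. That is a hint from the data about the numbering only. Each mouse gave both preparations by design, and the main fit did not pair them. The block changed no other member's call and gave 900 genes more than 2-fold higher and 1344 lower. Leaving out each library in turn gave ranges of 842 to 1316 genes higher, 719 to 2127 lower and 607 to 1733 more than 2-fold lower, of 3 members higher in every case, 0 to 1 lower and 0 to 1 more than 2-fold lower (*Pdgfd* without mural cell replicate 1), of 0.57 to 0.66 for *Pdgfra* and -1.08 to -0.78 for *Pdgfd*, and of 7.79 to 9.36 for the ratio of summed receptors. The causes were not tested. When genes at 0 in any sample were left out, an alternative chosen after seeing the data, 932 genes rather than 1493 were more than 2-fold lower and 987 rather than 952 higher. Of the 1493 genes, 646 were at 0 in at least 1 library and could not be called there, as were 17 of the 952. Quantile normalization moved the median of all genes by 0.13 on the log2 scale and gave 1212 genes more than 2-fold higher and 1080 lower, against 952 and 1493, with no member's call changed. Low depth limits *Pdgfc*, *Pdgfd* and *Pdgfrl* most.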

Other observations

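Within the tip and arterial EC list and the platelet list, genes went in different directions. Those named here were singled out after their values were seen. *Gja4*, the gene of an arterial EC connexin that smooth muscle also uses, was at 70.4, 90.4 and 61.6 FPKM in the fragments and 212, 250 and 181 FPKM in the sorted mural cells, 2.89-fold higher (limma, adjusted p = 0.00118). *Efnb2*, the gene of the arterial ligand ephrin-B2, went the other way, at 63.4, 66.5 and 52.9 FPKM and at 28.8, 33.7 and 32.0 FPKM (51.7%, adjusted p = 0.00303). Among platelet markers, *Pf4* fell to 6.99% of its fragment level (adjusted p = 0.00618), while *Gp1bb* was at 2.70, 2.39 and 3.02 FPKM in the fragments and 6.06, 10.9 and 14.5 FPKM in the sorted cells, 3.88-fold higher (adjusted p = 0.014). The libraries of the 2 groups did not overlap for any of these genes, as for 40.9% of all tested genes.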
